A study of Mus musculus with 288 samples.

Results

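The peroxisome genes described here are 31 named genes, out of 35904 genes in the tables, that build the peroxisome or work inside it. They were chosen by name, and they fall into 13 peroxins, 13 genes of fatty acid transport and oxidation, 2 genes of ether lipid synthesis and 3 enzymes that make or remove hydrogen peroxide. All 31 were found in the tables. Wild type male C57BL/6J mice of 8 weeks were kept in normoxia or exposed to intermittent hypoxia (IH), in which inhaled oxygen cycled between 21% and 8%, for 7 days during the light phase. All mice then spent 2 days in constant normoxic darkness and were killed on the second day, every 3 hours, at 8 time points from 1:30 to 22:30 h. Poly(A) RNA was sequenced from liver and kidney, from heart, muscle and lung, and from cerebellum, with 3 libraries per time point, which gave 24 libraries in each of 12 groups and 288 in all. The mice were not killed under hypoxia, so IH here means a past exposure. Which tissues came from the same mouse was not stated.

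Peroxisomes are single-membrane organelles that shorten very long and branched fatty acids, begin the synthesis of ether lipids and handle hydrogen peroxide. Peroxins insert the membrane proteins and carry folded enzymes from the cytosol into the matrix, and the organelle is most abundant in hepatocytes and in the proximal tubule of the kidney. In mouse liver many of the genes of fatty acid oxidation in peroxisomes are known targets of the nuclear receptor PPAR alpha.

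The tables held TPM, a transcript abundance relative to gene length and to the library total, which keeps no read depth. Each library was rescaled by a median of ratios within its tissue, and these values are called scaled TPM. Each of the 12 markers of a tissue was above 1 TPM in that tissue. Of the 288 libraries, 1 correlated better with another tissue than with its own and 2 correlated with their own group below 0.9, while the other libraries reached at least 0.937. The library labelled liver IH replicate 2 at 13:30 had a correlation of 0.965 with the median profile of IH heart and of 0.872 with that of IH liver, its own group. The sum of its 12 liver markers was 1835 TPM, against 80384 to 117311 TPM in normoxia liver. In that library 63.2% of all TPM came from the single gene Gm19220. High shares of this gene also occurred in libraries close to their group. It made up 36.5% in kidney IH replicate 1 at 1:30 and 32.0% in muscle normoxia replicate 2 at 1:30, with own-group correlations of 0.997 and 0.993. The library labelled cerebellum IH replicate 3 at 1:30 had 45.2% of its TPM from Gm19220 and a correlation of 0.898 with its group. Members that differed after IH in liver and cerebellum are also given without the 2 libraries below 0.9 where they are described. Liver rhythms after IH and the comparison of the IH effect between liver and kidney are given in part without the liver one. The further peroxisomal genes, the PPAR alpha targets and the receptors were tested with both libraries kept.

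The promoters of 5 members are shown because these genes gave the largest differences in liver or the widest daily rhythms. Each line is 300 bases from RefSeq, build GRCm38.p6, on the minus strand, running 5′ to 3′ from 250 bases before the start of the gene to 50 bases after it. The windows are chr16:21787785-21788084 for Ehhadh, chr9:119157044-119157343 for Acaa1b, chr2:103485104-103485403 for Cat, chr5:8997097-8997396 for Crot and chr14:31640916-31641215 for Hacl1. Capitals mark the CCAAT box on either strand (CCAAT or ATTGG) and the nuclear receptor motif on either strand (AGGTCA or TGACCT).
Ehhadh: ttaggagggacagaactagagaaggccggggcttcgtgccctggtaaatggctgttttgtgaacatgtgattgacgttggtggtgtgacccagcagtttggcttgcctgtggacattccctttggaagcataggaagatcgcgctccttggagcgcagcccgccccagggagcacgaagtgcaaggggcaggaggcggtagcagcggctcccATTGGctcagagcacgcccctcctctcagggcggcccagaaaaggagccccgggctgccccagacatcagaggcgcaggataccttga
Acaa1b: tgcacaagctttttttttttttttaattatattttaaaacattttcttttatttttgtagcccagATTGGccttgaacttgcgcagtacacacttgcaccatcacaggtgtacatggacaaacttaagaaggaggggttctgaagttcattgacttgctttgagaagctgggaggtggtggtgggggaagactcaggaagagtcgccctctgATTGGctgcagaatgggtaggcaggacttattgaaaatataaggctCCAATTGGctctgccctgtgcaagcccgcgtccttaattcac
Cat: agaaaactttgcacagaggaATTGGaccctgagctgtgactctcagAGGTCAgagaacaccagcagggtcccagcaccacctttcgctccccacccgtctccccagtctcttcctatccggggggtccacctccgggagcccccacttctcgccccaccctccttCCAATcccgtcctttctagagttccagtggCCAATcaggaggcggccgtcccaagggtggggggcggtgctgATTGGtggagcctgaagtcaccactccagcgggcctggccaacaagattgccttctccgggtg
Crot: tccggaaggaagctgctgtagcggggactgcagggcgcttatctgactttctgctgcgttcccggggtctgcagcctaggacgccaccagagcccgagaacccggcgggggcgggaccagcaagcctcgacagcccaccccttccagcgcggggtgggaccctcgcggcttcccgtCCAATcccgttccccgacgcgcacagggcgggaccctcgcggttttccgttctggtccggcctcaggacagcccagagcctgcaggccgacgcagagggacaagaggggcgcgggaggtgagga
Hacl1: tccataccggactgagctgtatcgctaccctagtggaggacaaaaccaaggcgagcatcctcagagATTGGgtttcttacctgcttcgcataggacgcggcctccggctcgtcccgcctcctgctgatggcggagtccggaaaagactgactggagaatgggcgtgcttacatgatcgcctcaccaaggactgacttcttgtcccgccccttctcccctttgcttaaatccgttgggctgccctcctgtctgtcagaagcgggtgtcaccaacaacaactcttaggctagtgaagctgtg

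All 5 windows held a CCAAT box, with 4 copies each in Acaa1b and Cat, of which a pair in Acaa1b overlapped on opposite strands. The 5 genes were picked for their expression, so this is a description of these windows. A window was found for 26 of the 31 members, 31 windows in all, and not for Pex19, Pex2, Abcd2, Hsd17b4 and Amacr. The CCAAT box stood in 12 of these 31 windows and in 37.4% of all 32851 windows. The nuclear receptor motif AGGTCA was present in 4 member genes, Cat, Pex11g, Phyh and Scp2, and in 16.3% of all windows. Its direct repeat with 1 base between the copies (AGGTCANAGGTCA), the form bound by PPAR and RXR, was found in no member window and in 0.0396% of all windows. The E-box CACGTG was present in Gnpat alone among the members and in 7.15% of all windows, and the GC box GGGCGG in 19 member windows and in 35.7% of all windows. Each motif was searched on both strands, and absence of the letters in these 300 bases says nothing about binding elsewhere.

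In normoxia the members were most abundant in liver. Of the 31 members, 17 had their highest mean TPM in liver, 10 in kidney, 3 in muscle and 1 in cerebellum, while 17 had their lowest mean in heart. Their mean TPM summed to 8259 in liver, 4073 in kidney, 1176 in lung, 1037 in muscle, 829 in heart and 783 in cerebellum. In whole tissue, more cells of a type and more RNA per cell cannot be told apart.

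**Figure D1:**
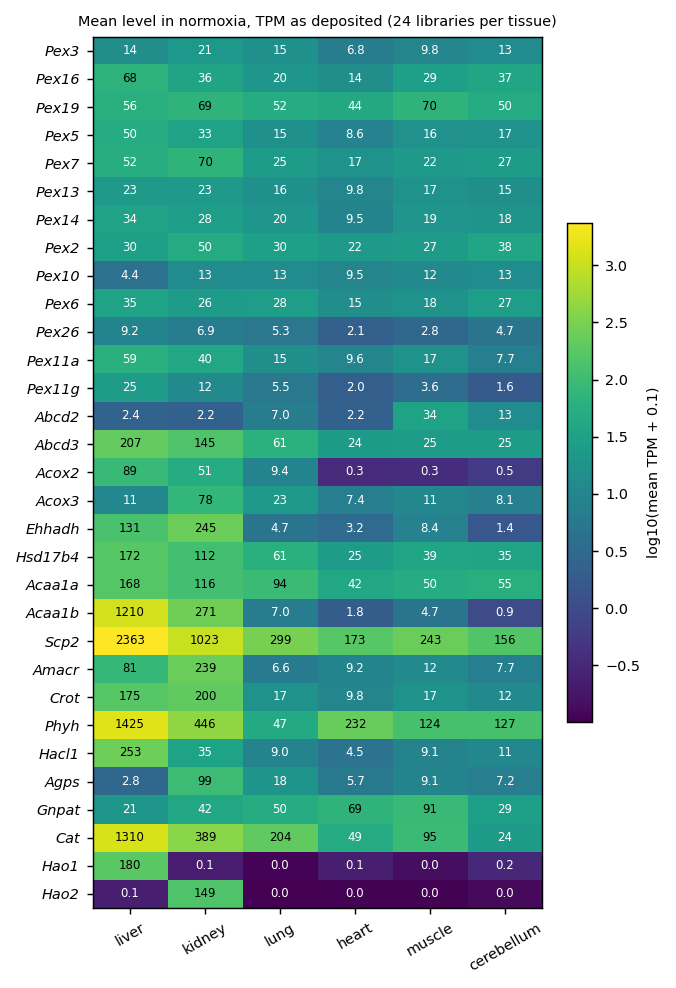
Mean TPM of the 31 members (vertical axis) in the 24 normoxia libraries of each of 6 tissues (horizontal axis), with colour on a log scale. Liver and kidney carry the highest values for most enzymes, and Hao1 and Hao2 are near 0 outside liver and kidney.

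Among the enzymes, the most abundant transcript was Scp2, which makes sterol carrier protein and a thiolase, at 2363 ± 265 TPM in liver and 1023 ± 118 in kidney (mean ± SD, n = 24 libraries). Phyh, the hydroxylase that begins the breakdown of phytanic acid, stood at 1425 ± 86.5 TPM in liver and 446 ± 56.2 in kidney. Catalase, encoded by Cat and the main peroxisomal enzyme against hydrogen peroxide, stood at 1310 ± 193 TPM in liver, 389 ± 78.1 in kidney, 204 ± 17.6 in lung, 95.1 ± 24.9 in muscle, 48.9 ± 10.1 in heart and 24.0 ± 6.99 in cerebellum. The ranges of mean ± SD of Cat did not overlap between any pair of neighbouring tissues in that order.

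Acaa1a and Acaa1b encode the thiolase of the last step of the cycle and are near-identical copies, so reads may be shared between them and their separate values are uncertain. Acaa1b reached 1210 ± 265 TPM in liver and 271 ± 71.8 in kidney but 0.912 ± 0.972 in cerebellum. Acaa1a varied less, from 168 ± 19.8 TPM in liver to 42.2 ± 7.10 in heart.

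The hydroxyacid oxidases divided liver from kidney. Hao1, which oxidises glycolate, had 180 ± 19.7 TPM in liver and 0.115 ± 0.0410 in kidney, and Hao2, which acts on longer hydroxyacids, had 149 ± 31 TPM in kidney and 0.132 ± 0.158 in liver. Neither exceeded a mean of 0.22 TPM in any of the other 4 tissues. Agps, which forms the ether bond of ether lipids, was also a kidney gene, at 99.2 ± 24.6 TPM against 2.83 ± 1.39 in liver. Its partner Gnpat, which acylates dihydroxyacetone phosphate in the preceding step, had its highest mean in muscle, at 91.2 ± 7.39 TPM.

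Abcd2, which carries very long chain acyl-CoA into the organelle, was highest in muscle at 33.8 ± 9.44 TPM, against 2.23 ± 1.53 in heart. Its homologue Abcd3 followed the liver pattern with 207 ± 37.1 TPM there. The highest mean of any peroxin was 70.4 ± 9.68 TPM, for Pex7 in kidney, the receptor that carries proteins with the N-terminal signal. Pex19, the chaperone of membrane proteins, kept within 44.4 ± 6.17 TPM in heart and 69.8 ± 9.34 in muscle. Pex26, the membrane anchor of the ATPase that recycles the receptors, reached no more than 9.23 ± 3.66 TPM, in liver. Pex10, a ligase subunit that marks the receptors for recycling, was the member with its highest mean in cerebellum, at 13.4 ± 4.25 TPM, and this exceeded the 12.9 ± 1.40 TPM in lung by less than the spread.

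Normoxia liver and kidney were compared in a limma fit over all 12847 genes above 1 mean TPM. The fit took all libraries as independent, although both organs may come from the same mice. Of the 31 members, 29 differed, 23 higher and 6 lower in liver. Over all genes 41.9% were higher and 43.9% lower. The median log2 difference was 1.05 over the members and -0.02 over all genes. When the TPM were taken as deposited, the median of all genes moved to -0.74 and the split of the members was 17 higher and 12 lower, so the direction of members with small differences rests on the scaling.

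The largest differences towards liver were those of Hao1 with a log2 difference of 8.65 ± 0.05 (SE), Hacl1, the lyase of phytanic acid breakdown, with 3.54 ± 0.13, Acaa1b with 2.96 ± 0.10 and Cat with 2.55 ± 0.05. Towards kidney they were Hao2 with -7.44 ± 0.09, Agps with -4.26 ± 0.11, Acox3, the oxidase of branched acyl-CoA, with -2.03 ± 0.08, and Amacr, the racemase that prepares branched acids for oxidation, with -0.77 ± 0.08. These 8 members kept their direction on the TPM as deposited, and the values for Hao1 and Hao2 depend on the pseudocount because the lower tissue was near 0. Pex2, a ligase subunit, and Ehhadh, the bifunctional enzyme that hydrates and dehydrogenates, did not pass the threshold, with log2 differences of 0.06 ± 0.05 and -0.12 ± 0.09.

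Heart was compared with muscle in the same way over 13087 genes, of which 38.4% were higher and 40.2% lower in heart. Of 28 members tested, 2 were higher and 18 lower in heart, and 8 did not pass. Phyh was higher by 1.23 ± 0.08 and Abcd3 by 0.25 ± 0.06 on the log2 scale, and no further member was higher. Without the scaling 1 member was higher and 26 lower, and Abcd3 changed sign to -0.08, while the median of all genes moved from -0.01 to -0.31. The largest differences towards muscle were Abcd2 with -3.49 ± 0.13, Acaa1b with -1.07 ± 0.16, Ehhadh with -0.94 ± 0.10 and Pex14, a docking protein of the import machinery, with -0.68 ± 0.04. Sums of 12 fat cell markers were 80.1 to 2660 TPM in normoxia heart and 3451 to 16620 TPM in normoxia muscle, and their part in these differences was not tested.

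The effect of IH on mean 24-hour expression was tested in each tissue between 24 normoxia and 24 IH libraries with limma on log2(scaled TPM + 0.5), with p-values adjusted over all genes above a mean of 1 TPM. This fit took the libraries as independent and held no term for replicate number, so its p-values do not measure the spread between replicate numbers. A gene is said to be higher or lower where its adjusted p was at most 0.05. All differences below are IH minus normoxia on that log2 scale, ± SE, and fold changes of low genes are understated by the added constant.

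**Figure D2:**
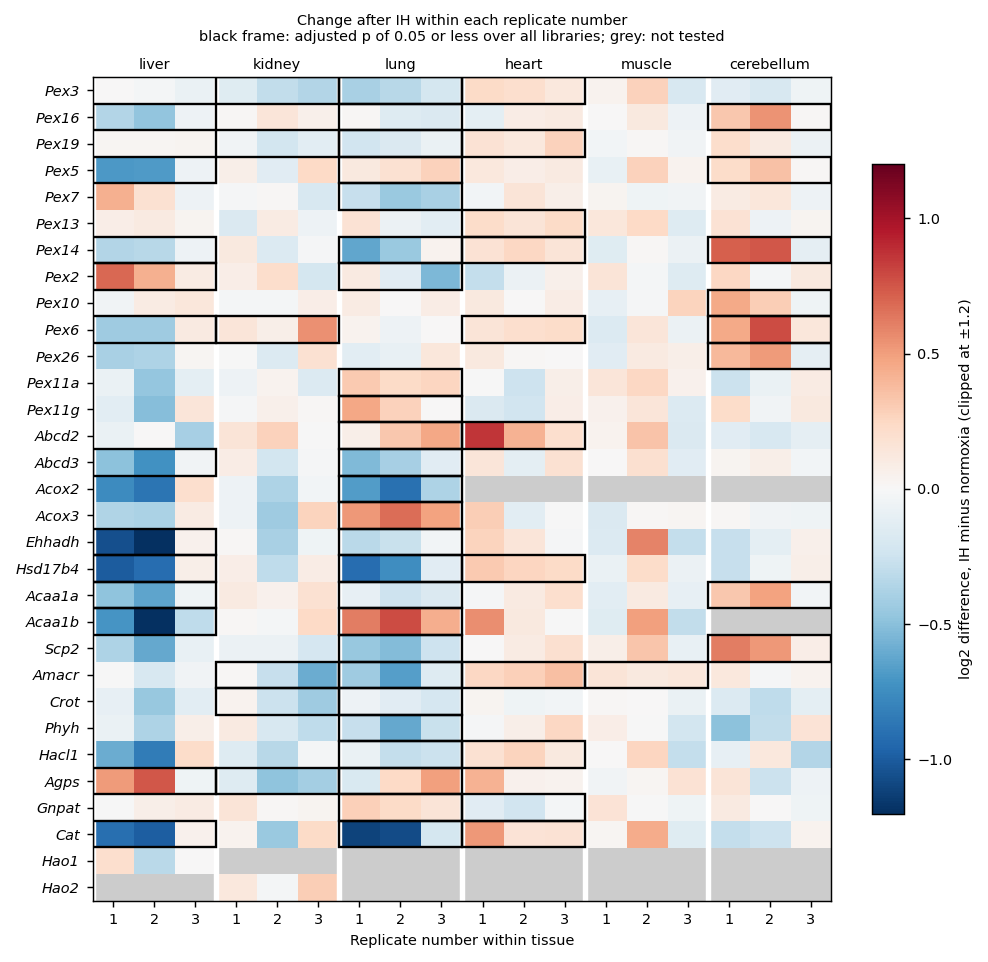
Log2 difference, IH minus normoxia, of the 31 members (vertical axis) for each replicate number within each of 6 tissues (horizontal axis), where each cell compares 8 IH with 8 normoxia libraries. Black frames mark members that passed the test over all replicates, grey cells were not tested, and in liver the cells of numbers 1 and 2 are far from 0 for Ehhadh, Cat and Hsd17b4 while those of number 3 are close to it.

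In liver 10 of 30 members tested were lower after IH and 2 higher, where 13.3% of all genes were lower and 10.9% higher. The largest differences were -0.78 for Ehhadh, -0.77 for Acaa1b, -0.61 for Hsd17b4 and -0.61 for Cat, and these 4 members were lower by more than 1.5-fold, as 2.56% of all genes were. Without the library labelled liver IH replicate 2 at 13:30 they were -0.66 for Ehhadh, -0.60 for Acaa1b, -0.54 for Hsd17b4 and -0.48 for Cat, all 4 still past the test and Ehhadh and Acaa1b still past 1.5-fold. All 13 genes of fatty acid transport and oxidation had a negative difference, with a median of -0.39 against -0.01 over all genes, and 5 of the 13 passed. Amacr was at 0.01 and Phyh at -0.02 once the library labelled liver IH replicate 2 at 13:30 was left out, so the 13 no longer shared a sign. With that library kept, the median of the 13 was -0.48, -0.63 and -0.04 in replicate numbers 1, 2 and 3. For most of these genes the differences lay in 2 of the 3 replicate numbers.

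Ehhadh, a PPAR alpha target, ran from 79.4 to 185 scaled TPM with a median of 129 in the normoxia libraries. After IH it ran from 11 to 155 with a median of 77.4, and 13 of the 24 IH libraries lay below every normoxia library. The difference was -0.78 ± 0.18, with an adjusted p of 0.0017 in limma. By replicate number it was -1.06 in number 1, -1.32 in number 2, which holds the library that stood apart, and 0.05 in number 3. The IH libraries of numbers 1 and 2 were low and those of number 3 lay within the normoxia range.

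Hsd17b4, the bifunctional enzyme for branched and very long chains, ran from 132 to 188 scaled TPM in normoxia (median 169) and from 31.5 to 182 after IH (median 107). Its difference was -0.61 ± 0.14 with an adjusted p of 0.0014 in limma. All 16 IH libraries of replicate numbers 1 and 2 lay below every normoxia library and none of the 8 of number 3 did.

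Catalase showed the same division. Cat ran from 1062 to 1377 scaled TPM in normoxia (median 1256) and from 94.7 to 1508 after IH (median 912), with a difference of -0.61 ± 0.18 and an adjusted p of 0.0099 in limma. The 16 IH libraries of numbers 1 and 2 lay below every normoxia library, and 3 of the 8 libraries of number 3 lay above every one.

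Acaa1b ran from 545 to 1800 scaled TPM in normoxia (median 1195) and from 41.4 to 1077 after IH (median 727). All 24 IH libraries were below the normoxia median, but only 2 were below every normoxia library. The difference was -0.77 ± 0.19 with an adjusted p of 0.0030 in limma, and by replicate number it was -0.71, -1.32 and -0.30. Of the 4 members past 1.5-fold, Acaa1b had the only difference below -0.1 in number 3.

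Pex5, the receptor that carries enzymes with the C-terminal signal into the peroxisome, ran from 38.4 to 55.8 scaled TPM in normoxia (median 46.9) and from 9.15 to 50.7 after IH (median 35.4). Its difference was -0.47 ± 0.11 with an adjusted p of 0.0014 in limma, and 15 IH libraries, all of numbers 1 and 2, lay below every normoxia library. Pex14 and Pex16, which dock the receptor and insert membrane proteins, were lower by smaller amounts, with differences of -0.25 and -0.30. Pex6, an ATPase that recycles the receptor, had -0.25, and Abcd3 and Acaa1a had -0.42 and -0.39. Without the library labelled liver IH replicate 2 at 13:30 these were -0.40 for Pex5, -0.19 for Pex14, -0.21 for Pex16, -0.21 for Pex6, -0.32 for Abcd3 and -0.32 for Acaa1a, and all 6 still passed.

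**Figure D3:**
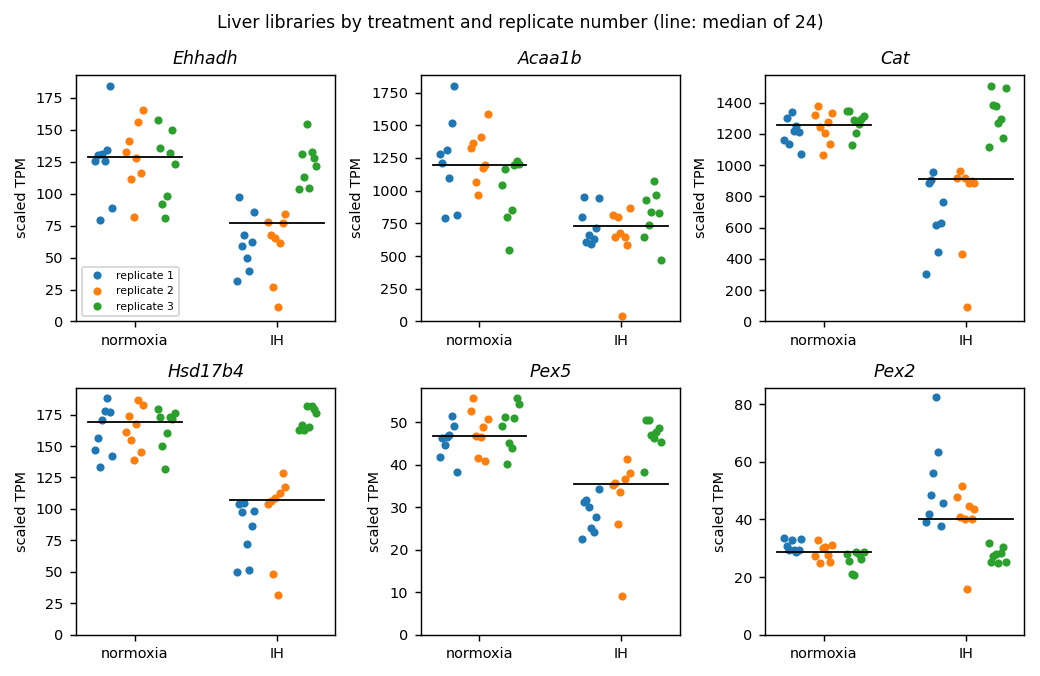
Scaled TPM (vertical axis) of Ehhadh, Acaa1b, Cat, Hsd17b4, Pex5 and Pex2 in each of the 48 liver libraries by treatment and replicate number (horizontal axis). Lines mark the median of the 24 libraries of each treatment. For Cat and Hsd17b4 the IH libraries of numbers 1 and 2 lie below all normoxia libraries and those of number 3 do not.

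Pex2 and Agps were the members higher in liver. Pex2 ran from 20.6 to 33.5 scaled TPM in normoxia and from 16.0 to 82.3 after IH, with a difference of 0.41 ± 0.11, an adjusted p of 0.0051 in limma and 15 IH libraries above every normoxia library. Agps had 0.40 ± 0.12 from a low level, with medians of 2.04 and 3.48 scaled TPM. Without the library that stood apart these differences were 0.46 for Pex2 and 0.36 for Agps, and both still passed. Its deposited values moved with kidney markers in the liver libraries. Agps had medians of 1.76, 1.87 and 4.71 TPM in normoxia numbers 1, 2 and 3 and of 2.65, 3.73 and 4.06 TPM after IH. The summed 12 kidney markers had medians of 3.44, 4.89 and 115 TPM in normoxia and of 103, 97.8 and 82.6 TPM after IH, and their part in the Agps difference was not tested. Hao2, which was below the filter in liver and not tested, had medians of 0.0386, 0.0669 and 0.352 TPM in normoxia and of 0.313, 0.337 and 0.363 TPM after IH.

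The remaining 18 tested members in liver lay between -0.47 for Acox2, the oxidase of bile acid precursors, and 0.18 for Pex7. Acox2 had an adjusted p of 0.069 in limma, with an interval from -0.86 to -0.09. Without the library that stood apart Acox2 passed at -0.32 with an adjusted p of 0.048 in limma, as did Scp2 at -0.23 and Pex7 at 0.26. Crot, which moves shortened chains towards mitochondria as carnitine esters, had -0.22 with an interval from -0.65 to 0.20.

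The liver result depended on the replicates. The number of genes called by limma moved in the same way as that of the members. With all 3 replicate numbers 2748 of 11334 genes were called. Without number 1 no member was called and 110 of 11438 genes were, without number 2 Acaa1b alone and 239 of 11315 genes were, and without number 3 there were 15 members and 4637 of 11211 genes. Fitted on 1 number at a time, 13 members were called in number 1, among 3037 of 11057 genes, and 3 in number 2, among 1959 of 11328. In number 3 no member was called, while 1 gene of 11468 was called at all and 1029 had an unadjusted p under 0.05 in limma. The median difference over the members was -0.24, -0.40 and 0.02 in numbers 1, 2 and 3. Without the library labelled liver IH replicate 2 at 13:30, 15 members were called, 3 higher and 12 lower, among 3258 of 11243 genes. The summed 12 liver markers had medians of 89488, 92983 and 89047 TPM in normoxia and of 60213, 66064 and 92037 TPM after IH, so that their level moved with the members across the numbers, and their part in the result was not tested. Markers of other tissues also differed between the liver libraries. The summed 12 heart markers had medians of 22.0, 21.6 and 83.9 TPM in normoxia numbers 1, 2 and 3 and of 67.7, 60.1 and 60.3 TPM after IH. Like those of the kidney markers, these medians were low in normoxia numbers 1 and 2 and higher in normoxia number 3 and in the IH libraries. Agps moved with the kidney markers, as given above, while Cat set apart other libraries, those of IH numbers 1 and 2. Its medians were 1217, 1260 and 1291 scaled TPM in normoxia and 697, 893 and 1336 after IH. The part of the marker division in the member differences was not tested.

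In kidney fewer members differed. Of 30 tested, 5 were lower and 1 higher, where 11.5% of all genes were lower and 8.25% higher, and no member was past 1.5-fold. The median difference was -0.05 over the members and -0.01 over all genes. Agps ran from 69.3 to 140 scaled TPM in normoxia (median 94.4) and from 38.5 to 132 after IH (median 77.7), with a difference of -0.35 ± 0.11 and an adjusted p of 0.015 in limma. Of its IH libraries 8 lay below every normoxia library, and the difference was negative in each replicate number. Pex3, the anchor on which the peroxisomal membrane is built, ran from 13.0 to 26.8 in normoxia and from 13.7 to 20.2 after IH, with -0.26 ± 0.05 and an adjusted p of 0.00044 in limma. The Pex3 groups overlapped, with 23 of 24 IH libraries below the normoxia median.

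Amacr in kidney had a median of 235 scaled TPM in normoxia and 188 after IH, with a range of 125 to 342 against 129 to 286. Its difference of -0.29 ± 0.09 was made up of 0.01, -0.28 and -0.60 by replicate number, so number 1 did not share it. Crot had -0.22 ± 0.07 with 0.04, -0.26 and -0.43 by number, and Pex19 had -0.13 ± 0.05. Pex6 was the higher member, from a range of 16.9 to 31.4 to a range of 19.8 to 80.8 scaled TPM, with 0.26 ± 0.09, an adjusted p of 0.037 in limma and 9 IH libraries above every normoxia library. Without number 2 there were 2 calls, Pex3 and Pex6, among 2531 of 12862 genes, and without number 3 Pex3 alone, among 2004 of 12928. On the TPM as deposited 4 members were lower and none higher. With the number of detected genes as a term, 1 member was lower and 3 higher, where 1436 of 12902 genes were lower and 1671 higher. Pex3 at -0.20 and Pex6 at 0.35 still passed, Acaa1a at 0.20 and Pex5 at 0.15 then passed, and Agps at -0.28, Amacr at -0.19, Crot at -0.16 and Pex19 at -0.06 did not. Median numbers of detected genes in kidney were 21847, 21558 and 21504 in normoxia and 22117, 22924 and 21593 after IH. The genes of catalase and of the bifunctional enzymes did not pass in kidney, with -0.06 for Cat (interval -0.23 to 0.11), -0.05 for Hsd17b4 (-0.19 to 0.09) and -0.14 for Ehhadh (-0.33 to 0.05).

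In lung 17 of 29 members were lower and 8 higher, where 41.5% of all genes were lower and 28.9% higher. Cat, Acox2 and Hsd17b4 were lower by more than 1.5-fold, as 4.39% of all genes were, and Acaa1b was higher by more than 1.5-fold, as 9.12% were. All 13 genes of fatty acid transport and oxidation passed, 10 lower and 3 higher, and both genes of ether lipid synthesis were higher. The split depended on the scaling. On the TPM as deposited 16 members were higher and 3 lower, and the median difference of all genes moved from -0.08 to 0.21. Relative to those medians Cat, Acox2 and Hsd17b4 were below and Acox3 and Acaa1b above on both scales.

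Cat in lung ran from 199 to 278 scaled TPM in normoxia (median 225) and from 53.1 to 245 after IH (median 167), and 21 of 24 IH libraries lay below every normoxia library. Its difference was -0.80 ± 0.13 with an adjusted p of 9.3e-07 in limma, and -0.50 on the TPM as deposited. By replicate number it was -1.11, -1.08 and -0.22, so the third was smaller than the others. Hsd17b4 ran from 59.6 to 72.6 in normoxia and from 22.8 to 66.1 after IH, with -0.60 ± 0.11, an adjusted p of 3.2e-06 in limma and -0.91, -0.75 and -0.14 by number. All 24 of its IH libraries were below the normoxia median and 16 were below every normoxia library. Acox2 ran from 7.67 to 22.4 and from 3.25 to 11.5, with -0.65 ± 0.13 and an adjusted p of 2.1e-05 in limma.

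Acox3 and Acaa1b were higher. Acox3 ran from 16.9 to 30.0 scaled TPM in normoxia (median 24.7) and from 28.1 to 52.9 after IH (median 35.1), and 23 of 24 IH libraries lay above every normoxia library. Its difference was 0.56 ± 0.05 with an adjusted p of 1.3e-12 in limma, and 0.52, 0.67 and 0.49 by replicate number. Acaa1b ran from 5.68 to 12.9 in normoxia (median 7.27), and after IH its lowest library was at 3.90, its median at 12.2 and 7 libraries above every normoxia library. The difference was 0.61 ± 0.09 with an adjusted p of 5.3e-08 in limma. Its direction in lung was the reverse of that in liver, and the level in lung was far lower, with medians of 7.27 and 1195 scaled TPM in normoxia, each scaled within its tissue.

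**Figure D4:**
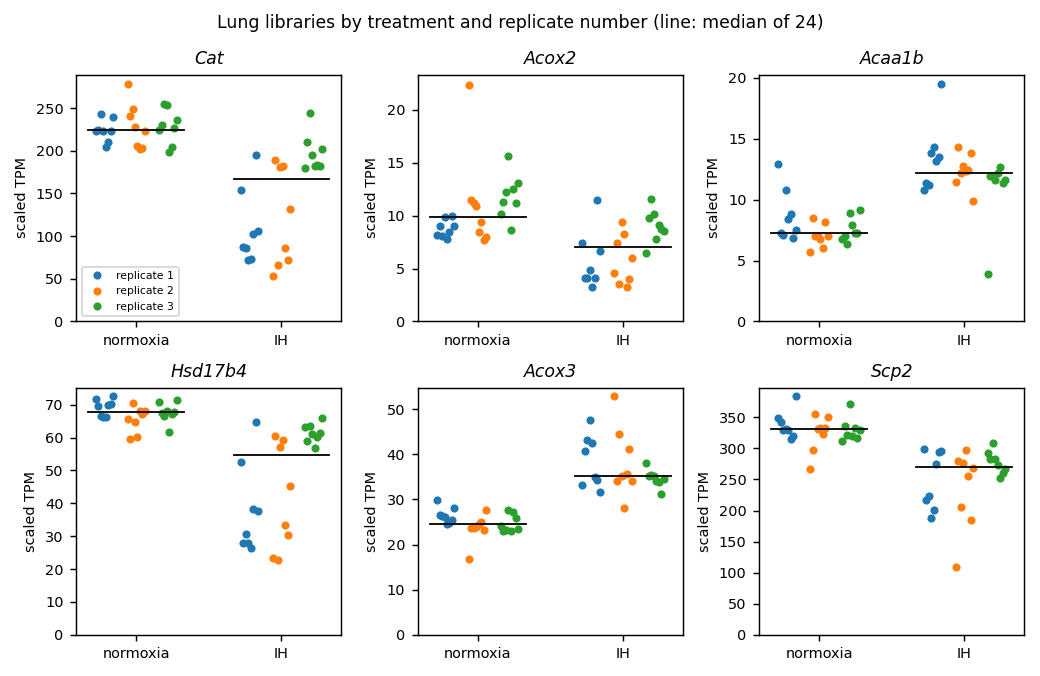
Scaled TPM (vertical axis) of Cat, Acox2, Acaa1b, Hsd17b4, Acox3 and Scp2 in each of the 48 lung libraries by treatment and replicate number (horizontal axis). Lines mark the median of the 24 libraries of each treatment. Acox3 is higher after IH in all 3 numbers, while Cat, Acox2 and Hsd17b4 are lowest in numbers 1 and 2.

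Smaller differences in lung ran in both directions within the import machinery. Pex5 was higher by 0.19 and Pex7 lower by 0.37 on the log2 scale, Pex3, Pex14 and Pex2 had -0.31, -0.34 and -0.19, and the proliferation factors Pex11a and Pex11g had 0.27 and 0.25. On the TPM as deposited Pex3, Pex7, Pex14 and Pex2 did not pass, with -0.01, -0.07, -0.05 and 0.11, while Pex5, Pex11a and Pex11g stayed higher. Gnpat had 0.22, with 21 of 24 IH libraries above every normoxia library, and Agps 0.18. Pex26, Pex13, Pex6 and Pex10 did not pass, with differences between -0.03 and 0.06.

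The lung libraries also differed in how many genes were detected. Median numbers of genes above 0 TPM were 22217, 22551 and 22952 in normoxia numbers 1, 2 and 3 and 26470, 25529 and 24122 after IH. With that number as a term in the fit, 13 members were called, 8 higher and 5 lower, while over all genes 4234 were higher and 3868 lower of 15426, against 4464 and 6400 without the term. The differences of Cat and Hsd17b4 turned to 0.05 and 0.15 and that of Acox2 to -0.20, and none of the 3 passed, while Acaa1b at 0.53 did. The 5 lower members were Pex2 at -0.48, Pex7 at -0.27, Pex16 and Crot at -0.15 and Pex3 at -0.13. Pex2 had an adjusted p of 5.8e-08 in limma and a larger difference than without the term. Pex14, which was lower without the term, turned to 0.15 with it and passed as higher. The summed 12 lung markers had medians of 175044, 171592 and 182838 TPM in normoxia and of 88380, 116859 and 186437 TPM after IH. They moved with Cat and Hsd17b4 across the replicate numbers, and their part was not tested.

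In heart the differences were small and mostly upward. Of 28 members tested, 10 were higher and 1 lower, where 28.0% of all genes were higher and 17.3% lower, and no member was past 1.5-fold. The median difference was 0.10 over the members and 0.04 over all genes. Abcd2 ran from 0.796 to 5.37 scaled TPM in normoxia (median 1.91) and from 1.32 to 8.23 after IH (median 2.86), with 0.50 ± 0.18 and an adjusted p of 0.020 in limma. The Abcd2 groups overlapped, and only 4 IH libraries exceeded every normoxia library.

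Hsd17b4 in heart ran from 21.8 to 32.1 scaled TPM in normoxia and from 22.8 to 40.0 after IH, with 0.27 ± 0.05, an adjusted p of 5.2e-05 in limma and 11 IH libraries above every normoxia library. Its difference was positive at all 8 time points and was 0.32, 0.26 and 0.23 by replicate number. Amacr had 0.30 ± 0.07, with a range of 5.03 to 12.2 in normoxia and of 8.66 to 15.3 after IH. Cat had 0.29 ± 0.07, with ranges of 31.3 to 76.1 and 44.8 to 79.6, and Pex13, a docking protein, had 0.20 ± 0.06 with ranges of 6.90 to 14.5 and 7.32 to 14.4. The lower member was Gnpat, at -0.13 ± 0.05, which was -0.01 on the TPM as deposited. On that scale 16 members were higher and none lower, and the median of all genes moved to 0.15.

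The number of heart calls moved with the setting. With the number of detected genes as a term, Pex13 alone was called, where 257 of 12779 genes were, against 5780 without that term. Without replicate 1 there were 6 calls among 3072 over all genes, without replicate 2 there were 8 among 4748, and without replicate 3 there were 13 among 5687. Median numbers of detected genes were 25564, 23982 and 26005 in normoxia and 20666, 21794 and 21717 after IH. The summed 12 fat cell markers had medians of 170, 255 and 976 TPM in normoxia and of 745, 673 and 1086 TPM after IH, and their part in the values of Abcd2 and Cat was not tested.

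In muscle 1 of 28 members differed. Amacr ran from 10.0 to 14.4 scaled TPM in normoxia (median 12.3) and from 10.53 to 15.6 after IH (median 13.53), with 0.13 ± 0.04 and an adjusted p of 0.034 in limma, where 5.48% of all genes were higher and 4.89% lower. Amacr was also the member called with replicate number as a block, but no member was called when any replicate number was left out. Over all genes 1532, 338 and 1209 were called without numbers 1, 2 and 3. Without the scaling 4 members were higher. The other 27 members lay between -0.07 for Pex14 and 0.15 for Pex11a.

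In cerebellum 8 of 27 members were higher and none lower, where 9.76% of all genes were higher and 5.24% lower. Of the 8, 6 were peroxins. Pex6 ran from 18 to 41.2 scaled TPM in normoxia (median 25.7) and from 26.7 to 78.6 after IH (median 33.7), with 0.46 ± 0.10 and an adjusted p of 0.0010 in limma. Every IH library was above the normoxia median of Pex6, and 3 were above every normoxia library. Scp2 ran from 115 to 221 in normoxia and from 125 to 267 after IH, with 0.41 ± 0.08 and an adjusted p of 0.00033 in limma. Pex14 had 0.45 ± 0.14, Pex16 0.29 ± 0.09, Pex26 0.26 ± 0.09, Acaa1a 0.26, Pex10 0.23 and Pex5 0.20.

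The normoxia cerebellum libraries of replicate number 3 were already high for these genes. Pex14 had normoxia medians of 11.9, 14.9 and 28.1 scaled TPM in numbers 1, 2 and 3 and IH medians of 20.9, 25.3 and 26.2. Scp2 had 125, 141 and 201 in normoxia and 197, 203 and 208 after IH. Within number 3 no member was called, and no gene of 14419 was, with 396 at an unadjusted p under 0.05 in limma. Without replicate 1 Pex6 alone was called among 175 of 14592 genes, without replicate 2 no member among 48 of 14959, and without replicate 3 there were 9 members among 5289 of 15084. On the TPM as deposited Pex6 and Scp2 passed. Without the library labelled cerebellum IH replicate 3 at 1:30 there were 10 calls, 8 higher and 2 lower, among 3629 of 14861 genes, the added members being Crot at -0.21 and Phyh at -0.25. The values of the 8 were then 0.45 for Pex6, 0.41 for Scp2, 0.50 for Pex14, 0.31 for Pex16, 0.28 for Pex26, 0.28 for Acaa1a, 0.26 for Pex10 and 0.21 for Pex5. The summed 12 heart markers in cerebellum had medians of 2595, 1475 and 443 TPM in normoxia and of 597, 576 and 1144 TPM after IH, and their part was not tested.

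Whether the IH effect differed between tissues was tested as an interaction. All libraries were taken as independent in these fits, although organs may come from the same mice. Between liver and kidney, 13 of 31 members differed, 4 with a more positive and 9 with a more negative difference in liver, where 15.5% and 13.1% of all genes did. The most negative was Acaa1b, at -0.84 ± 0.22 with an adjusted p of 0.0018 in limma, followed by Ehhadh at -0.63 ± 0.21. Agps, higher in liver and lower in kidney, was the most positive, at 0.78 ± 0.17. Without the library labelled liver IH replicate 2 at 13:30 there were 15, 6 positive and 9 negative, with -0.67 for Acaa1b, -0.51 for Ehhadh and 0.74 for Agps, and without replicate 1 or 2 there were 4 and 8. On the TPM as deposited 1 was positive and 7 were negative.

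Between lung and heart, 22 of 29 members differed, 4 with a more positive and 18 with a more negative difference in lung, where 21.5% and 44.0% of all genes did. Cat had -1.14 ± 0.16 with an adjusted p of 6.4e-10 in limma, and Hsd17b4 had -0.92 ± 0.12 with an adjusted p of 2.5e-10. Acox3 was the largest positive, at 0.44 ± 0.09. On the TPM as deposited 6 were positive and 10 negative, and the median of all genes moved from -0.17 to 0.06. Every comparison of this kind uses the normoxia and IH libraries of both tissues, so these values are not independent of those above.

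Daily rhythms were tested by fitting a 24-hour cosine to the 24 libraries of each group in limma, where the amplitude is the log2 distance from the mean to the peak and the peak time is in hours of the labelled clock. In normoxia 6 of 30 members were rhythmic in liver, where 17.7% of all genes were, 6 of 30 in kidney (21.0%), 3 of 29 in lung (9.15%), 4 of 28 in muscle (6.38%) and none in heart (0.626%) or cerebellum (0.00%). After IH 2 members were rhythmic in liver, where 2.63% of all genes were, and none in kidney (5.74%), lung (4.65%), heart (4.17%), muscle (8.83%) or cerebellum (0.0134%).

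Crot had the widest rhythm. In normoxia liver its mean over 3 libraries was 274 ± 61.7 scaled TPM (SD) at 1:30 h and 82.2 ± 11.1 at 13:30 h, and the libraries of these time points did not overlap. Its amplitude was 0.81 ± 0.06 with a peak at 2.19 h, a peak-to-trough fold of 3.09 and an adjusted p of 2.3e-09 in limma. After IH it had an amplitude of 0.95 ± 0.17 and a peak at 2.20 h. The library labelled liver IH replicate 2 at 13:30 falls at its trough, with 16.0 scaled TPM, and without it the amplitude of Crot after IH was 0.76 ± 0.12 with a peak at 2.38 h.

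Hacl1 was high at 19:30 h, with 366 ± 65.0 scaled TPM, and low at 7:30 h, with 135 ± 51.7. Its amplitude was 0.74 ± 0.09 with a peak at 22.2 h and an adjusted p of 7.7e-06 in limma, against 0.82 ± 0.19 with a peak at 23.0 h after IH. Without that library, where Hacl1 was at 16.6 scaled TPM, the amplitude after IH was 0.63 ± 0.10 with a peak at 22.0 h. Both rhythms stayed past the threshold after IH, with adjusted p values of 0.0057 for Crot and 0.049 for Hacl1 in limma.

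Pex26 and Pex11a had their peaks in the afternoon of the labelled clock. Pex26 went from 5.69 ± 0.523 scaled TPM at 1:30 h to 14.8 ± 2.22 at 13:30 h, with an amplitude of 0.54 ± 0.09, a peak at 13.7 h and an adjusted p of 0.00041 in limma. Pex11a, which drives the growth and division of peroxisomes, went from 40.6 ± 3.22 at 7:30 h to 73.8 ± 11.9 at 13:30 h, with 0.39 ± 0.06 and a peak at 16.7 h. Amacr and Pex14 had smaller amplitudes of 0.21 and 0.15 and peaks near 5 h. Of the 6, all but Pex14 also passed the rank-based test and passed on the TPM as deposited. Without the library labelled liver IH replicate 2 at 13:30, 4 members were rhythmic after IH, the added ones being Acaa1a with an amplitude of 0.39 and a peak at 11.4 h and Pex11a with 0.48 and a peak at 15.1 h.

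**Figure D5:**
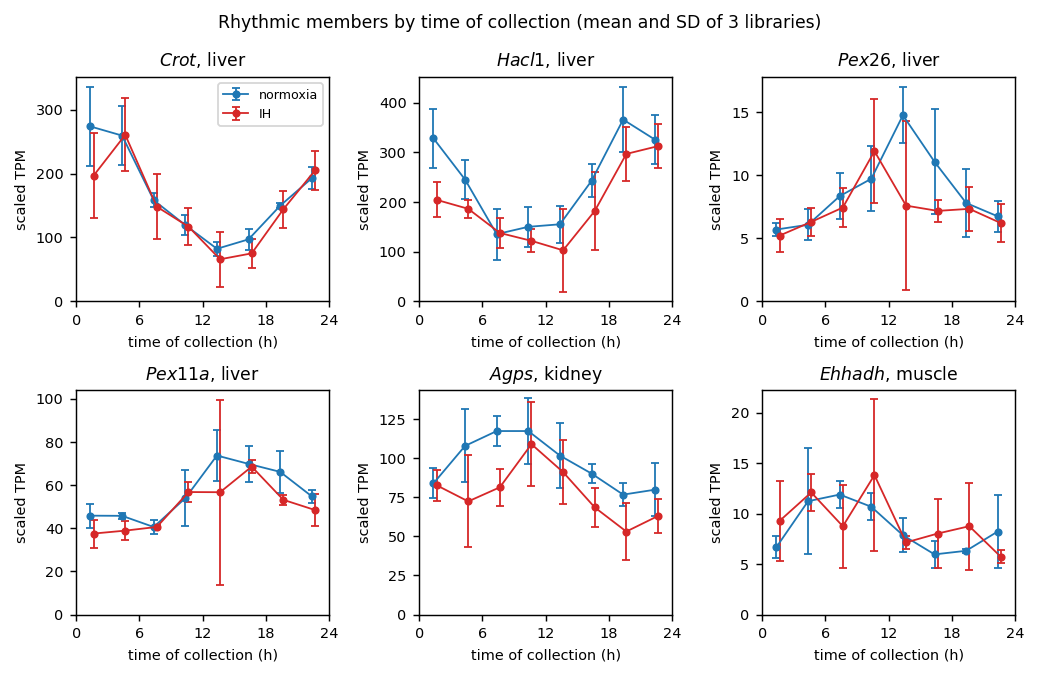
Mean scaled TPM (vertical axis) with SD of 3 libraries at each of 8 time points (horizontal axis, hours) for Crot, Hacl1, Pex26 and Pex11a in liver, Agps in kidney and Ehhadh in muscle, by treatment. Crot and Hacl1 follow similar courses in normoxia and IH, and the wide bar at 13:30 h in IH liver includes the library with a heart-like profile.

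In kidney the rhythmic members were Agps, Acaa1b, Acox3, Hao2, Crot and Pex19. Agps ranged from 76.7 ± 7.37 scaled TPM at 19:30 h to 117 ± 9.88 at 7:30 h, with an amplitude of 0.32 ± 0.06, a peak at 9.01 h and an adjusted p of 0.0011 in limma. Acaa1b had 0.27 with a peak at 15.3 h, and Acox3, Hao2 and Crot had amplitudes of 0.23 with peaks at 7.12, 2.54 and 8.18 h. Crot peaked at 2.19 h in liver and at 8.18 h in kidney, and this difference was not tested. Acox3 and Hao2 did not pass the rank-based test, with adjusted p values of 0.057 and 0.067. On the TPM as deposited Agps, Crot, Pex2 and Pex7 were rhythmic in kidney, and Acaa1b, Acox3, Hao2 and Pex19 were not. Without replicate 2 no kidney member was rhythmic, where 1372 of 12862 genes were. Without replicate 1 there were 2, where 648 of 12878 genes were, against 2705 of 12902 with all replicates.

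In lung Pex26 had an amplitude of 0.18 with a peak at 14.2 h, Pex3 0.13 with a peak at 1.10 h and Cat 0.12 with a peak at 4.28 h. Pex26 thus peaked within an hour of the same clock time in lung and liver. Cat did not pass the rank-based test, and on the TPM as deposited Pex26 passed and Pex3 and Cat did not. Without replicate 1 none was rhythmic in lung, where 222 of 15382 genes were, and without replicate 3 there was 1, where 522 of 15590 were. In muscle Ehhadh went from 5.96 ± 1.34 scaled TPM at 16:30 h to 11.9 ± 1.32 at 7:30 h, with an amplitude of 0.43 ± 0.09, a peak at 7.4 h and an adjusted p of 0.014 in limma. Pex16, Pex3 and Pex19 had amplitudes of 0.26, 0.20 and 0.11 and peaks at 7.36, 7.79 and 10.4 h. Ehhadh was the 1 muscle member that passed the rank-based test. With replicate number as a block, 7 muscle members were rhythmic in normoxia and 2 after IH. Over all genes 1502 and 1482 of 12824 were. Without replicate 1 there was 1 muscle member in normoxia, where 297 of 12853 genes were rhythmic. Without replicate 2 or 3 there was none, where 229 of 12838 and 417 of 12805 genes were.

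Fewer members passed after IH, but the difference of the rhythms between treatments was not shown for any member. In the limma test of that difference no member and no gene was called in any tissue (0.00% of genes in each). At an unadjusted p under 0.05 there were 4 members in muscle (Cat, Hacl1, Pex6 and Scp2), 1 in cerebellum (Acox3) and none in liver, kidney, lung or heart. Over all genes 86 in liver, 328 in kidney, 289 in lung, 72 in heart, 580 in muscle and 683 in cerebellum had such a p.

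Among 51 further peroxisomal genes listed for comparison, 7 of 47 tested were lower and 3 higher in liver after IH, with a median of -0.08. Over all genes 13.3% were lower and 10.9% higher in liver. Lonp2, the protease of the peroxisomal matrix, had -0.65 there, and Mff, which recruits the fission machinery, 0.55. In lung 21 of 43 were lower and 11 higher, where 41.5% and 28.9% of all genes were. In heart 10 of 39 were higher and 5 lower (28.0% and 17.3% of all genes). In kidney 9 of 46 were lower and 3 higher (11.5% and 8.25%). In muscle 4 of 40 were higher and 2 lower (5.48% and 4.89% of all genes), and in cerebellum 4 of 44 were higher and 4 lower (9.76% and 5.24%). The same shares of all genes stand beside the PPAR alpha targets and the receptors below. Of 16 PPAR alpha targets outside the peroxisome, 5 of 15 tested were lower and none higher in liver, with a median of -0.38. They included the pantetheinase Vnn1 at -0.80, the fatty acid hydroxylase Cyp4a10 at -0.79 and Cpt1a, which admits fatty acids to mitochondria, at -0.53. In heart 5 of 11 of these targets were higher, with 0.51 for Acsl1, 0.40 for Pdk4 and 0.30 for Cpt1a. In kidney 1 of 14 was higher and 1 lower, in lung 3 of 12 were higher and 6 lower, and in muscle and cerebellum none of 12 and 11 was called by limma. These lists, and the receptors below, were tested with all libraries only and without a term for detected genes. Over all genes, limma called 1 of 11468 in liver within replicate number 3. In heart it called 257 of 12779 with the term for detected genes, against 5780 without it.

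Of 8 PPAR and RXR receptors and their coactivators, Pparg was called in liver, at -0.49, and Ppara in kidney, at -0.29. In lung 4 of 7 were higher and 1 lower, with 0.53 for Ppargc1b and -0.35 for Rxra, and in heart 3 of 8 were higher, with 0.53 for Ppara and 0.36 for Rxra. In muscle 2 of 8 were higher and 1 lower, and in cerebellum 2 of 8 were higher, with 0.71 for Rxrb and 0.32 for Rxra. Ppara and the 2 PPAR alpha groups of genes are compared within the same libraries, so their values share any difference in the make-up of the tissue.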

How the data were processed

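Poly(A) RNA from 288 tissue samples of single mice was sequenced on a NovaSeq, and the authors quantified reads with Kallisto against Ensembl release 102. The submitters' processing notes also name mm10, bcl2fastq and FastQC 0.11.3. The deposited values are TPM per gene, with replicates kept apart, and the read depth of a library is not known from them. Here each tissue was scaled by a median of ratios, genes averaging 1 TPM or more in a tissue were kept, and log2(scaled TPM + 0.5) was tested with limma 3.58.1 in R 4.3.3, with Benjamini-Hochberg adjustment over all genes tested. The mean was compared between treatments, between liver and kidney and between heart and muscle in normoxia, and as interactions. Rhythms were tested with a 24-hour cosine and with a rank-based test. The study's own test of estimated counts could not be run on TPM.

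Groups and replicate numbers came from the sample titles. The numbers are counts of mice at a time point, and no source says that a number marks a batch. Same-numbered normoxia and IH libraries deviated together in every pair in muscle alone (correlations of 0.155, 0.375 and 0.65), so the blocked fit is given there. Full values are given for the 5 largest called differences per tissue, the 4 widest rhythms per tissue and the 4 largest tissue differences in each direction. The further values beside them, such as those of Agps and Hao2 in liver and of members that did not pass, were chosen after their values were seen. The members, the gene lists and the tests were chosen with earlier results of these data known. Tests were checked on simulated data, drawn independently for each gene and library. The simulated data held no difference between replicate numbers or in the make-up of the tissue, so the check does not cover these. Alternatives were another pseudocount, a stricter filter, no filter, TPM as deposited, a replicate block, a time point term, a term for detected genes, a 1.5-fold threshold, and fits without or with single replicate numbers. The fits on 1 replicate number, and the rhythm and interaction fits without the liver library that stood apart, were chosen after seeing the data.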

Additional observations from a re-analysis of the deposited data

Results flagged for a closer look

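The IH effect differed between tissues, by the limma interaction test over all genes, for the members named here. Values are the log2 difference in the first tissue minus that in the second. In liver against kidney the effect was more positive in liver for Agps (0.78), Hao2 (0.53), Pex2 (0.39) and Pex3 (0.24). It was more negative in liver for Acaa1b (-0.84), Ehhadh (-0.63), Hsd17b4 (-0.56), Cat (-0.54), Pex5 (-0.52), Acaa1a (-0.50), Pex6 (-0.49), Pex16 (-0.36) and Abcd3 (-0.36). Hao2 was near 0 in liver, so its value rests on scaled TPM below the filter of that tissue.

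In lung against heart the effect was more positive in lung for Acox3 (0.44), Pex11g (0.30), Gnpat (0.30) and Pex11a (0.27). It was more negative in lung for Cat (-1.14), Hsd17b4 (-0.92), Amacr (-0.74), Pex14 (-0.59), Scp2 (-0.56), Pex3 (-0.55), Acox2 (-0.53), Phyh (-0.53) and Pex7 (-0.49), and further for Abcd3 (-0.48), Hacl1 (-0.45), Pex19 (-0.41), Ehhadh (-0.39), Acaa1a (-0.32), Pex13 (-0.27), Pex6 (-0.25), Pex16 (-0.18) and Crot (-0.16). The all-gene median of this difference was -0.17, and the TPM as deposited gave 0.05 for Pex16 and 0.06 for Crot.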

How the results depend on the processing

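Counts below are members called by limma. A 1.5-fold threshold left 4 in liver and 4 in lung, and 0 in kidney, heart, muscle and cerebellum. It left 3 in the liver and kidney interaction, 9 in heart against muscle and 4 in the lung and heart interaction. The TPM as deposited gave 4 in muscle, 2 in cerebellum, 1 rhythmic after IH in liver, 0 rhythmic in normoxia muscle and 8 in the liver and kidney interaction. On linear TPM 0 were rhythmic in muscle and by ranks 1. The term for detected genes gave 13 in lung, 1 in heart and 3 in cerebellum, and in kidney 4 (3 higher and 1 lower) against 6 (1 higher and 5 lower) without it, and no filter gave 0 in muscle. Leaving out a replicate number or 1 library gave 0 to 15 in liver, 1 to 6 in kidney, 21 to 24 in lung, 6 to 13 in heart, 0 in muscle and 0 to 10 in cerebellum. It gave 4 to 15 in the liver and kidney interaction. For rhythm in normoxia it gave 4 to 6 in liver, 0 to 4 in kidney, 0 to 2 in lung and 0 to 1 in muscle, and after IH 0 to 4 in liver and 0 to 1 in kidney.

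Within single replicate numbers 1, 2 and 3 the calls were 13, 3 and 0 in liver, 0, 3 and 8 in kidney, 17, 17 and 20 in lung, 8, 2 and 0 in heart, 0, 0 and 2 in muscle and 3, 7 and 0 in cerebellum. Over all genes, 11057 to 15683 tested, they were 3037, 1959 and 1 in liver, 105, 2505 and 3623 in kidney and 10263, 7971 and 8896 in lung. All-gene calls were 4799, 1382 and 655 in heart, 544, 653 and 1063 in muscle and 1285, 2429 and 0 in cerebellum. Among the 92 named results, signs turned in number 3 alone for Ehhadh (0.0428), Hsd17b4 (0.0590) and Cat (0.0445) in liver and for Pex14 (-0.12) and Pex26 (-0.12) in cerebellum. In number 1 alone they turned for Amacr (0.0118) and Crot (0.0428) in kidney. They turned with the term for detected genes for Cat (0.0482) and Hsd17b4 (0.15) in lung. On the TPM as deposited they turned for Abcd3 in heart against muscle (-0.0800) and for Pex16 (0.0462) and Crot (0.0643) in the lung and heart interaction. Outside the named results, Pex14 in lung turned from lower to 0.15 with the term for detected genes and passed as higher. The cause was not tested.

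With replicate number as a block, 15 members were called in liver, 8 were rhythmic in normoxia liver and 9 in kidney, 6 in normoxia lung and 1 after IH, and 7 and 2 in muscle, and the block moved no other count by over 1.5 times. Outside muscle the numbers did not pair the samples in every pair (correlations from -0.519 to 0.669). Of 953 values for the 92 named results under these alternatives, 715 kept direction and side of the threshold, 226 kept direction only and 12 turned sign. Read depth is not known from TPM, so no counting error could be given.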
